A study of Mus musculus with 27 samples.

Results

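Imprinted genes were followed across J1 mouse embryonic stem cells (mESCs), Gas41 knockdown (KD) mESCs and embryoid bodies (EBs). The members were 42 gene symbols written down by name. Of these, 25 were classed as paternally expressed, 16 as maternally expressed and 1, Gnas, as both in different transcripts. The classes were assigned to the genes and were not measured in these cells. Of the 42 symbols, 41 were listed in at least 1 of the 3 deposited count tables, among 27080 genes in all. The 8 imprinted clusters with several members held 31 of the 42. RNA-seq had been made from 12 libraries of J1 mESCs, a mouse ES cell line grown on gelatin without feeders. Control cells infected with a control shRNA vector gave 3 libraries (shNT, called shCon in the labels), cells infected with shGas41-1 gave 3 and cells infected with shGas41-2 gave 2. Both shRNAs target Gas41 (gene symbol Yeats4), a YEATS domain protein shared by the Tip60/p400 and SRCAP complexes that place the histone variant H2A.Z in chromatin, and the knockdown cells were collected on day 8 after infection. Control-vector cells kept undifferentiated with LIF gave 2 libraries (EB day 0), and control-vector cells grown as EBs without LIF for 6 days gave 2 (EB day 6). Every library thus came from 1 cell line carrying a viral vector, and no clone was named. Nothing in the labels says that replicates of a group came from separate cultures, so p-values measure the spread between these libraries.

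Most imprinted genes, though not all, are transcribed from 1 parental allele because DNA methylation laid down in egg or sperm marks control regions that are kept through early development. In a cluster, a single control region often sets protein-coding genes on one parental chromosome against a long non-coding RNA on the other, as with Igf2 and H19 or with Dlk1 and Meg3. Many of the proteins regulate fetal growth, placental transport or neuronal function, and many are switched up as embryonic cells leave pluripotency. The counts pooled both alleles, so a level reported here is the sum of the alleles, and a change in level says nothing on which allele was read.

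Promoter sequence is shown for Peg3, Grb10, Dio3 and Magel2, because Grb10, Dio3 and Magel2 were called with a Gas41 shRNA and Peg3 was among the members that changed most at EB day 6. Each stretch is taken from RefSeq (GRCm38.p6) and runs 5′ to 3′ on the gene's strand, from 250 bases before a transcription start to 50 bases after it, with every CpG in capitals. CpG is the dinucleotide that carries imprinted DNA methylation.
Peg3 (chr7:6730370-6730669, minus strand): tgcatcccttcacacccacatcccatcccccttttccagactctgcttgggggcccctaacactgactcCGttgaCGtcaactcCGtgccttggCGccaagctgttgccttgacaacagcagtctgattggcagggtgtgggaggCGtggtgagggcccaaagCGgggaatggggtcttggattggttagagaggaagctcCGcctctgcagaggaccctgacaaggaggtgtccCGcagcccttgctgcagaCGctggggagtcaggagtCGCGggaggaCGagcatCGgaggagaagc
Grb10, first window (chr11:12027922-12028221, minus strand): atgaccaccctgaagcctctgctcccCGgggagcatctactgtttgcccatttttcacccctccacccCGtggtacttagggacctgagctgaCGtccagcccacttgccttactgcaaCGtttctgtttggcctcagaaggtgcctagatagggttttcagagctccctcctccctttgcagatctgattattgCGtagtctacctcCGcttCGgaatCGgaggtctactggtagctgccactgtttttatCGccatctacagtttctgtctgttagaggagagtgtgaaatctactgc
Grb10, second window (chr11:12037371-12037670, minus strand): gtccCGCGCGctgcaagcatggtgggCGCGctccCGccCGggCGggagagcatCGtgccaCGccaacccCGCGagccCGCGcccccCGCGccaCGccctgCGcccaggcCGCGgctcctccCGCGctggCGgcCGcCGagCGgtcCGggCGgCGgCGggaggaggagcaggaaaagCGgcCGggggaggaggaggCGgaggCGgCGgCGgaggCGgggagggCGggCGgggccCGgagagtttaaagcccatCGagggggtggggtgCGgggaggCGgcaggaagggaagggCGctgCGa
Dio3 (chr12:110278980-110279279, plus strand): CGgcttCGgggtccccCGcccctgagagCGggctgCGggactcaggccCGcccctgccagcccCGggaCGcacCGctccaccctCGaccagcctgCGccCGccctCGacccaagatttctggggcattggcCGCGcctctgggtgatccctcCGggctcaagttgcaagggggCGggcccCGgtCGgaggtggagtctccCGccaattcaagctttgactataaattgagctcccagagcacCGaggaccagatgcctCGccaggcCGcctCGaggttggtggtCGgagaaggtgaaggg
Magel2 (chr7:62376729-62377028, plus strand): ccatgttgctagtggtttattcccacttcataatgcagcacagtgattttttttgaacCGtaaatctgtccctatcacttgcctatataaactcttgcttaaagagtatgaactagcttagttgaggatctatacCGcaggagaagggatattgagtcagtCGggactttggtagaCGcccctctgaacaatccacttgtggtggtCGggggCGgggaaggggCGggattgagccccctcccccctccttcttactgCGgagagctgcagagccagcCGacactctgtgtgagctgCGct
The Peg3 window held 13 CpGs, the Dio3 window 25 and the Magel2 window 10. The Grb10 windows held 9 and 45 CpGs, so the starts of this gene lie in stretches of very different CpG density. RefSeq had 53 such windows for 35 of the members, with a median of 12 CpGs against 7 over 32851 windows of all genes. The hexamer TGCCGC, the letters that the imprint-protecting zinc finger protein Zfp57 reads when its CpG is methylated, was searched on both strands. It was present in 13 of the 53 windows (24.5%) and in 11.6% of all windows. Of the sequences printed only the second Grb10 window held it, 25 bases into the transcript. Member windows were not matched to all windows for CpG number, and some overlap each other, such as windows 2 and 3 of Mest. The letters CCCTC, core of the binding site of the zinc finger protein CTCF, were in 81.1% of member windows and 66.0% of all windows. The Peg3 window shared 263 bases with that of its neighbour Usp29, whose start lies 164 bases away on the other strand.

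The libraries held between 59224537 and 81524773 counts, so that 3 counts, taken as the floor of detection, were 0.0368 to 0.0507 CPM. CPM values are counts scaled to a common library size, with library totals adjusted by TMM over all 12 libraries, and the floor covers counting error only. Yeats4 itself was at 50.9 to 61.2 CPM in shNT libraries, at 3.46 to 5.10 with shGas41-1 and at 7.95 to 8.81 with shGas41-2, below every control library. Pluripotency markers summed to between 5534 and 7391 CPM in all undifferentiated libraries and to 2278 and 2399 CPM at EB day 6. Fibroblast markers, of cells that can serve as feeders, summed to at most 19.5 CPM in the undifferentiated libraries and to 31.3 CPM at EB day 6. A gene is called upregulated or downregulated at a fold change of at least 2 with an FDR of 0.05 or less, the FDR being the Benjamini-Hochberg adjusted p of edgeR's quasi-likelihood test over all genes tested. In bulk RNA, fewer cells of a type and less RNA per cell cannot be told apart.

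Levels of imprinted genes in control mESCs covered a wide range. Per kilobase of exon, the highest level in shNT libraries was that of Phlda2, a pleckstrin homology protein that limits placental growth, at 64.3 ± 4.04 RPKM (SD, n = 3). Next came the tetraspanin Cd81 at 50.9 ± 6.44, the retrogene Mcts2 at 50.4 ± 6.93 and the amino acid transporter Slc38a4 at 42.1 ± 3.84 RPKM. The splicing factor subunit Snrpn was at 34.4 ± 1.88, the adaptor Grb10 at 25.1 ± 2.81 and the non-coding RNA Rian at 20.5 ± 2.74 RPKM. By its mean, Tssc4 lay between Grb10 and Rian. Cd81 and Mcts2 did not differ beyond their spread, and neither did Mcts2 and Slc38a4. The growth factor Igf2, at 0.579 ± 0.125 RPKM, and the Notch-like ligand Dlk1, at 0.456 ± 0.186 RPKM, stood low in this order and also overlapped in spread.

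**Figure D1:**
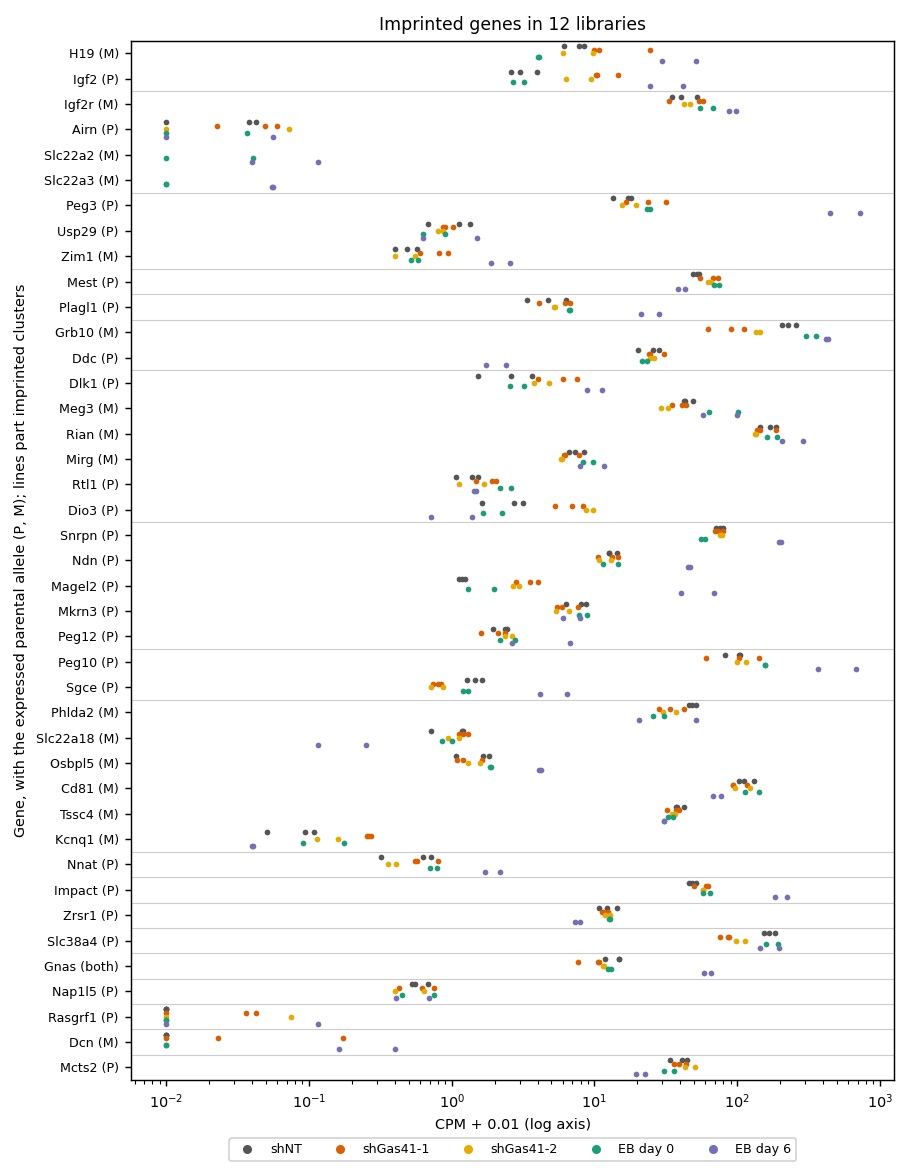
Level of each listed imprinted gene in each of the 12 RNA-seq libraries, as CPM plus 0.01 on a log axis. Each point is 1 library, coloured by group, rows are genes with their expressed parental allele (P paternal, M maternal), and grey lines part the clusters. Peg3 and Magel2 stand out by the distance of the EB day 6 points from all others, while Airn, Slc22a2, Slc22a3, Rasgrf1 and Dcn lie near the left edge.

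Of the 42 members, 6 entered no test. Kcnq1ot1, the non-coding RNA antisense to Kcnq1, was not listed in any table. Slc22a2 and Slc22a3, organic cation transporters next to Igf2r, were listed only in the EB table, with at most 7 counts in a library. Airn, the non-coding RNA antisense to Igf2r, had at most 5 counts in a library, and Rasgrf1, a Ras exchange factor, at most 7. Dcn, a matrix proteoglycan, had 26 and 10 counts at EB day 6, 13 counts in shGas41-1 replicate 2, at most 1 in each other library of those tables and no entry in the shGas41-2 table. The count filter left 36 members for shGas41-1 against shNT, 35 for shGas41-2 against shNT and 35 for EB day 6 against EB day 0.

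With Gas41 knocked down, 7 of the tested members were called with shGas41-1 and 3 with shGas41-2. With shGas41-1, Igf2, Kcnq1, Magel2, Dio3 and Dlk1 were upregulated and Grb10 and Slc38a4 were downregulated. The 5 upregulated genes are 13.9% of the 36 members tested, beside 7.9% of all 18274 genes tested. Among the 5, Kcnq1 had 3 to 6 counts in shNT libraries and passed the count filter only through the shGas41-1 libraries. The 2 downregulated genes are 5.56%, beside 2.4% of all genes. With shGas41-2, Dio3, Igf2 and Magel2 were upregulated, which is 3 of 35 members (8.57%) beside 3.96% of 18405 genes, and no member was downregulated, beside 0.869% of genes. Of those 35 members, 11 had an unadjusted p under 0.05 in either direction, beside 5209 of all 18405 genes. DESeq2 also called 0 members downregulated. When the test was made against a change of 2-fold itself (glmTreat), Igf2 with shGas41-1 was the single member called with either shRNA. The median log2 fold change of the members was 0.03 with shGas41-1 and 0.00 with shGas41-2, beside medians of 0.02 and -0.01 over all genes. Both comparisons share the 3 shNT libraries, so they are given side by side and are not independent.

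**Figure D2:**
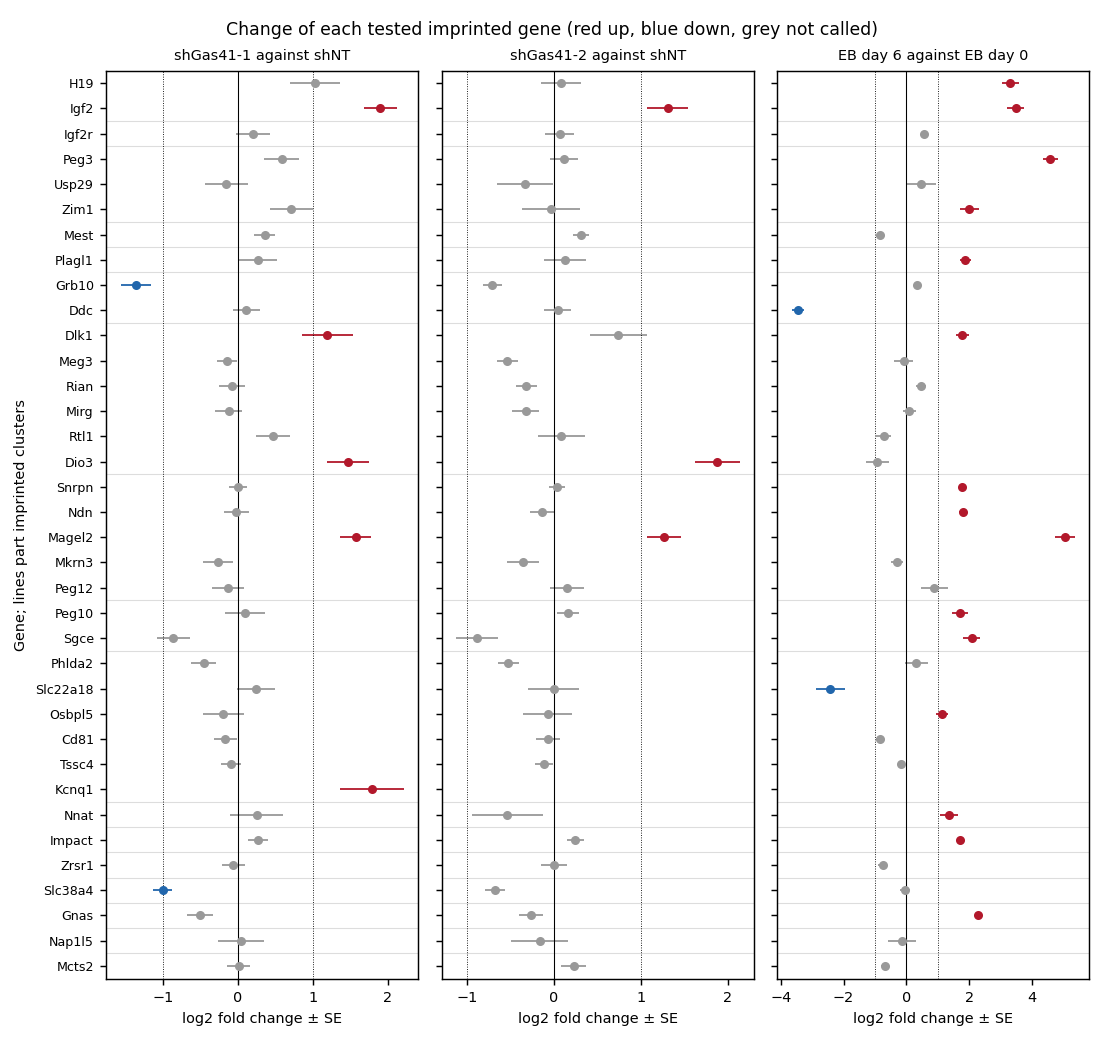
Log2 fold change of each tested imprinted gene, with its standard error, for shGas41-1 against shNT, shGas41-2 against shNT and EB day 6 against EB day 0, with a separate horizontal scale for each comparison. Red points were called upregulated, blue points downregulated and grey points not called, dotted lines mark a 2-fold change, and most members sit near 0 in both knockdown panels whereas 15 are red at EB day 6.

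Igf2 encodes a growth factor that drives fetal growth, and lies at chr7:149836673-149852721 (mm9, minus strand) beside H19. In shNT libraries it was at 2.60, 3.94 and 2.99 CPM. With shGas41-1 it was at 10.3, 14.5 and 10.3 CPM and with shGas41-2 at 6.29 and 9.43 CPM, so that every knockdown library lay above every shNT library. The rise was 3.74-fold with shGas41-1 (log2 1.90 ± 0.22 SE, FDR = 0.00251) and 2.48-fold with shGas41-2 (log2 1.31 ± 0.23, FDR = 0.0155). Without shGas41-2 replicate 2, which was the higher of the pair, the log2 fold change of Igf2 was 0.99 and its FDR 0.129.
H19, the non-coding RNA read from the maternal chromosome of the same cluster, was at 6.15, 7.80 and 8.47 CPM in shNT libraries. It was at 10.7, 24.5 and 9.92 CPM with shGas41-1 and at 5.99 and 9.78 CPM with shGas41-2. The shGas41-1 libraries lay above the shNT libraries, with replicate 2 far above the other two, while the shGas41-2 libraries overlapped shNT. The log2 fold change was 1.03 ± 0.33 (FDR = 0.064) with shGas41-1 and 0.08 ± 0.23 (FDR = 0.846) with shGas41-2, and neither passed. Without shGas41-1 replicate 2 the first value was 0.49 (FDR = 0.0968), and DESeq2 put it at 1.02 (FDR = 0.0131). Igf2r, the maternally expressed receptor that clears Igf2, was at 35.1 to 52.6 CPM in shNT libraries and at 33.4 to 58.1 CPM in knockdown libraries, with log2 fold changes of 0.20 ± 0.22 (FDR = 0.552) and 0.07 ± 0.17 (FDR = 0.815).

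The Dlk1-Meg3-Dio3 cluster on chromosome 12 showed rises at its 2 ends, both paternally expressed protein-coding genes. Dio3 (chr12:111517278-111519307, mm9) encodes the deiodinase that inactivates thyroid hormone. It was at 3.17, 2.73 and 1.62 CPM in shNT libraries, at 5.33, 6.94 and 8.32 CPM with shGas41-1 and at 9.71 and 8.66 CPM with shGas41-2. All knockdown libraries were above all shNT libraries, by 2.78-fold with shGas41-1 (log2 1.47 ± 0.28, FDR = 0.0103) and 3.69-fold with shGas41-2 (log2 1.88 ± 0.26, FDR = 0.00597).
Dlk1 (chr12:110691033-110701546, mm9) encodes a Notch-like ligand of progenitor cells. It was at 2.58, 3.63 and 1.52 CPM in shNT libraries, at 5.99, 7.50 and 4.01 CPM with shGas41-1 and at 3.77 and 4.84 CPM with shGas41-2. The groups did not overlap, but shNT replicate 2 came close to the lowest knockdown libraries. Dlk1 was upregulated 2.29-fold with shGas41-1 (log2 1.20 ± 0.34, FDR = 0.0409) and had a log2 fold change of 0.74 ± 0.33 with shGas41-2 (FDR = 0.181). The call with shGas41-1 was lost with library size scaling (FDR = 0.0557), without shNT replicate 1 (FDR = 0.0684) or shNT replicate 3 (FDR = 0.104), and without shGas41-1 replicate 1 (FDR = 0.106) or replicate 2 (FDR = 0.0794).
The maternally expressed non-coding RNAs of the cluster were not called. Meg3, whose levels were 42.7, 43.2 and 49.2 CPM in shNT libraries, was at 35.2, 41.2 and 44.0 CPM with shGas41-1 and at 29.1 and 32.9 CPM with shGas41-2. Its log2 fold change of -0.53 ± 0.12 with shGas41-2 had an FDR of 0.0308 but was smaller than 2-fold, and that with shGas41-1 was -0.14 ± 0.14 (FDR = 0.481). Rian, a snoRNA host, and Mirg, a miRNA host, had log2 fold changes of -0.08 and -0.12 with shGas41-1 and of -0.31 and -0.32 with shGas41-2, none of which passed. Rtl1, a retrotransposon-derived protein read antisense to miRNAs of the cluster, was at 0.47 ± 0.23 (FDR = 0.183) and 0.09 ± 0.27 (FDR = 0.862) on the same scale.

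In the Snrpn-Ndn cluster on chromosome 7, the region lost from the paternal chromosome in Prader-Willi syndrome, Magel2 alone among 5 members was called. Magel2 (chr7:69521865-69526526, mm9) is an intronless MAGE family gene active in the hypothalamus. It was at 1.18, 1.11 and 1.23 CPM in shNT libraries, at 3.53, 4.02 and 2.80 CPM with shGas41-1 and at 2.67 and 2.96 CPM with shGas41-2. Every knockdown library was above the narrow range of the controls, by 2.98-fold with shGas41-1 (log2 1.58 ± 0.21, FDR = 0.00306) and 2.41-fold with shGas41-2 (log2 1.27 ± 0.19, FDR = 0.00875).
With shGas41-2 the Magel2 call rested on both libraries, since the FDR was 0.0532 without replicate 1 and 0.0863 without replicate 2. Ndn, the neighbouring MAGE gene, was at 12.6 to 14.3 CPM in shNT libraries and at 10.5 to 14.7 CPM in knockdown libraries. Its log2 fold changes were -0.02 ± 0.16 (FDR = 0.946) and -0.13 ± 0.14 (FDR = 0.561). Snrpn, Mkrn3 and Peg12 had log2 fold changes between -0.35 and 0.16 in both comparisons and none was called.

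Grb10, Slc38a4, Sgce and Phlda2 lay lower in the knockdown libraries. Grb10 (chr11:11830511-11938686, mm9), an adaptor that dampens insulin and growth factor signalling, was at 205, 228 and 257 CPM in shNT libraries. It was at 91.0, 111 and 62.6 CPM with shGas41-1 and at 136 and 145 CPM with shGas41-2, so the groups did not overlap and the levels with shGas41-1 were below those with shGas41-2. The fall was 2.57-fold with shGas41-1 (log2 -1.36 ± 0.20, FDR = 0.00401). With shGas41-2 the log2 fold change of -0.71 ± 0.11 had an FDR of 0.0106 and did not reach 2-fold. Over the alternative fits described at the end it was -0.79 to -0.62, and not every FDR stayed at 0.05 or less.
Slc38a4 (chr15:96825254-96886387, mm9), an amino acid transporter of placenta and liver, was at 168, 155 and 186 CPM in shNT libraries. It was at 87.0, 87.2 and 75.9 CPM with shGas41-1 and at 114 and 97.8 CPM with shGas41-2, again below every control. The log2 fold change of -1.01 ± 0.13 with shGas41-1 (FDR = 0.00293) was just past the 2-fold limit, and it was short of it without shNT replicate 3 (-0.95) or without shGas41-1 replicate 3 (-0.96). With shGas41-2 it was -0.68 ± 0.11 (FDR = 0.0134), and -0.79 to -0.57 over the alternative fits, where again not every FDR stayed at 0.05 or less.
Sgce, epsilon-sarcoglycan, was at 1.27 to 1.63 CPM in shNT libraries and at 0.711 to 0.858 CPM in the knockdown libraries. Its log2 fold change was -0.86 ± 0.22 with shGas41-1 (FDR = 0.0275) and -0.88 ± 0.24 with shGas41-2 (FDR = 0.0599), so it was not called. Peg10, which starts next to Sgce and is read in the other direction, was at 82.2 to 104 CPM in shNT libraries and at 60.7 to 142 CPM in knockdown libraries. Phlda2 was at 45.7 to 51.8 CPM in shNT libraries and 28.3 to 42.8 CPM in knockdown libraries, with log2 fold changes of -0.46 ± 0.17 (FDR = 0.0917) and -0.52 ± 0.12 (FDR = 0.0389).

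Kcnq1, a potassium channel gene in the Kcnq1ot1 cluster (chr7:150293159-150612955, mm9), was called with shGas41-1 at a very low level. Its counts were 6, 6 and 3 in shNT libraries, 20, 20 and 15 with shGas41-1 and 12 and 8 with shGas41-2. The log2 fold change was 1.79 ± 0.43 (FDR = 0.0227), and the FDR was 0.0755 without shNT replicate 2, 0.0885 without shNT replicate 3 and 0.0771 without shGas41-1 replicate 1. Kcnq1 did not pass the count filter in the shGas41-2 comparison, and no strand setting was stated for the counting, so reads of Kcnq1 and of transcripts antisense to it cannot be told apart. Gnas, which rose at EB day 6, was at 11.9 to 14.9 CPM in shNT libraries and 7.63 to 11.7 CPM in knockdown libraries, with log2 fold changes of -0.51 ± 0.18 (FDR = 0.0774) and -0.26 ± 0.14 (FDR = 0.258). Zim1 was at 0.392 to 0.567 CPM in shNT libraries and had log2 fold changes of 0.72 ± 0.29 (FDR = 0.116) and -0.03 ± 0.33 (FDR = 0.962). Nap1l5, a nucleosome assembly protein family gene, was at 0.388 to 0.742 CPM over all 12 libraries and was not called in any comparison. The 5 other tested members of the Kcnq1ot1 cluster, Phlda2, Slc22a18, Osbpl5, Cd81 and Tssc4, were not called with either shRNA.

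**Figure D3:**
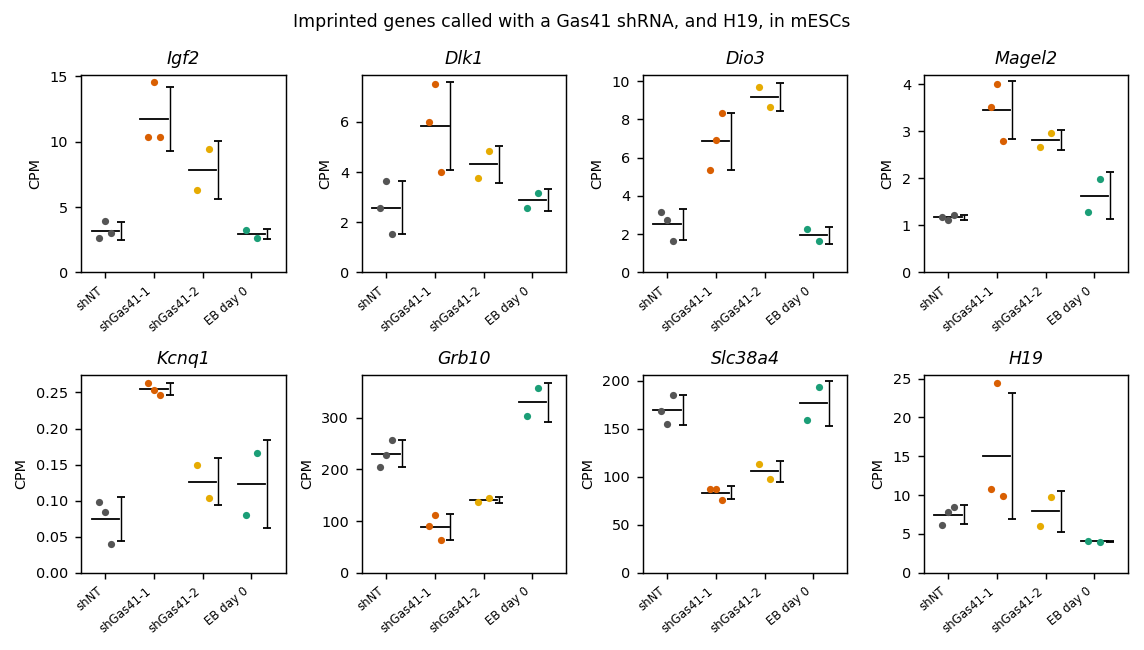
CPM of the imprinted genes called with a Gas41 shRNA, and of H19, in shNT (n = 3), shGas41-1 (n = 3), shGas41-2 (n = 2) and EB day 0 (n = 2) libraries, on linear axes that start at 0. Points are libraries, horizontal lines are means and bars are ± SD; Igf2, Dio3 and Magel2 are above shNT in all 5 knockdown libraries, and Grb10 and Slc38a4 below.

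For 36 members the libraries of shGas41-1 were set directly against those of shGas41-2. No member was called in either direction (0% of all 19009 genes upregulated and 0% downregulated), although 1111 genes and 3 members, Igf2, Grb10 and Kcnq1, had an unadjusted p under 0.05. DESeq2 also called 0 members. The 95% intervals given here rest on the spread between libraries and on 3 residual degrees of freedom, fewer than the test used. They are thus wider than the test implies, and those of Igf2 and Grb10 include 0 despite their unadjusted p. The difference for Grb10, shGas41-1 minus shGas41-2 on the log2 scale, was -0.66 with a 95% interval of -1.40 to 0.08. For Igf2 it was 0.59 (-0.21 to 1.38), for Dio3 -0.42 (-1.11 to 0.28), for Magel2 0.30 (-0.42 to 1.02) and for Dlk1 0.45 (-0.46 to 1.36). These intervals leave room for differences of about 2-fold in at least 1 direction for each of the 5 genes. The same log2 difference for Yeats4 was -0.95 ± 0.21 (FDR = 0.528).

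Imprinted genes of several clusters rose on EB differentiation. Between EB day 0 and day 6, 15 of 35 members tested were upregulated (42.9%, beside 16.6% of 18287 genes) and 2, Ddc and Slc22a18, were downregulated (5.71%, beside 14.7%). The median log2 fold change of the members was 0.47, and that of all genes 0.00. In these libraries 6 of 8 pluripotency markers were downregulated, while early lineage markers summed to 1624 and 2162 CPM at day 6, against 35.4 and 35.6 CPM at day 0. Extraembryonic endoderm markers summed to 60.5 CPM in EB day 6 replicate 2 and 155 in replicate 3, against at most 5.27 CPM at day 0. Only part of that list rose: Gata4, Gata6, Sox17 and Foxa2 were upregulated, while Sox7 was downregulated (log2 -3.29, FDR = 0.000274). Ttr and Apoa1 had at most 7 counts in an EB series library, and Afp had no entry there. Trophoblast markers summed to at most 55.8 CPM at day 6 against at most 30.1 at day 0. The part of these cell types in the changes of imprinted genes was not tested.

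Magel2 showed the widest change, from 1.29 and 1.98 CPM at day 0 to 68.4 and 40.8 CPM at day 6, which was 33.1-fold (log2 5.05 ± 0.33, FDR = 5.49e-05). Ndn rose from 11.4 and 14.7 CPM to 45.6 and 47.1 CPM (log2 1.80 ± 0.13, FDR = 8.66e-05). Snrpn rose from 56.3 and 59.8 CPM to 203 and 198 CPM (log2 1.77 ± 0.08, FDR = 1.50e-05). The remaining members of the cluster were not called. Mkrn3, a ring finger protein, was at 7.81 and 8.89 CPM and then at 5.97 and 7.88 CPM (log2 -0.29 ± 0.18, FDR = 0.215). Peg12, a Frat family gene, was at 2.76 and 2.18 CPM and then at 2.65 and 6.69 CPM, with a log2 fold change of 0.89 ± 0.42 (FDR = 0.112), and only replicate 3 lay above day 0.

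Peg3, a zinc finger protein with roles in growth and maternal behaviour (chr7:6656603-6683132, mm9), went from 23.5 and 24.5 CPM at day 0 to 449 and 723 CPM at day 6. Both day 6 libraries were far above day 0, by 24.0-fold (log2 4.59 ± 0.24, FDR = 2.38e-05). In the knockdown libraries Peg3 was at 15.7 to 32.0 CPM, against 13.6 to 18.0 CPM in shNT, and was not called (FDR = 0.108 with shGas41-1 and 0.666 with shGas41-2).
Usp29, the ubiquitin protease gene whose RefSeq start lies in the Peg3 promoter window printed above, was at 0.884 and 0.621 CPM at day 0 and 0.620 and 1.49 CPM at day 6. The groups overlapped and its log2 fold change was 0.46 ± 0.47 (FDR = 0.433). The Usp29 model of the mm9 annotation is a single block of 2610 bases (chr7:6913871-6916480) that lies apart from Peg3, so reads from first exons near the shared promoter would not be in its counts. Zim1, the maternally expressed zinc finger gene of the cluster, was at 0.509 and 0.576 CPM at day 0 and at 1.88 and 2.56 CPM at day 6 (log2 2.01 ± 0.30, FDR = 0.0016).

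Igf2 and H19, read from opposite parental chromosomes, both rose. Igf2 went from 3.21 and 2.67 CPM to 24.4 and 42.1 CPM (log2 3.47 ± 0.28, FDR = 0.000121). H19 went from 4.07 and 4.00 CPM to 29.7 and 51.4 CPM (log2 3.31 ± 0.26, FDR = 0.000116). The day 6 libraries of both genes were well above day 0, and replicate 3 was the higher one for each. Igf2r was at 67.4 and 55.4 CPM at day 0 and 97.8 and 87.5 CPM at day 6, a rise of 1.49-fold (log2 0.57 ± 0.12, FDR = 0.00635) that was below the 2-fold limit.

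Dlk1 rose from 2.57 and 3.18 CPM to 8.83 and 11.3 CPM (log2 1.79 ± 0.20, FDR = 0.000502). Dio3, at the other end of the cluster, was at 2.25 and 1.64 CPM at day 0 and at 0.711 and 1.37 CPM at day 6, with a log2 fold change of -0.93 ± 0.37 (FDR = 0.072), so that the day 6 libraries were the lower ones although the test was not passed. Meg3 varied within groups, at 101 and 63.6 CPM on day 0 and 99.7 and 57.3 CPM on day 6 (log2 -0.09 ± 0.30, FDR = 0.815). Rian and Mirg had log2 fold changes of 0.47 ± 0.17 (FDR = 0.0541) and 0.10 ± 0.21 (FDR = 0.72).

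Peg10, a retrotransposon-derived gene needed for placenta formation, rose from 158 and 158 CPM to 369 and 683 CPM (log2 1.71 ± 0.26, FDR = 0.00173). Without EB day 0 replicate 3 its FDR was 0.0888. Sgce rose from 1.29 and 1.20 CPM to 4.17 and 6.47 CPM (log2 2.07 ± 0.27, FDR = 0.000947). In the Grb10 cluster, Grb10 stayed high at 303 and 356 CPM and then 431 and 422 CPM (log2 0.35 ± 0.10, FDR = 0.0211), less than 2-fold. Ddc, the aromatic amino acid decarboxylase next to it, fell from 23.3 and 21.5 CPM to 2.40 and 1.72 CPM, which was 11.0-fold (log2 -3.46 ± 0.19, FDR = 3.20e-05).

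Among members outside those clusters, Gnas, the stimulatory G protein alpha subunit locus, rose from 12.4 and 13.1 CPM to 58.5 and 66.0 CPM (log2 2.27 ± 0.10, FDR = 1.36e-05). Of its exonic bases 22.0% overlap other annotated genes, among them the antisense Nespas, and its counts may hold reads of those. Impact, an inhibitor of the kinase Gcn2, rose from 57.6 and 64.2 CPM to 223 and 183 CPM (log2 1.72 ± 0.12, FDR = 7.05e-05). Plagl1, a zinc finger transcription factor, rose from 6.60 and 6.73 CPM to 28.4 and 21.2 CPM (log2 1.88 ± 0.17, FDR = 0.000189). For all of these genes both day 6 libraries were above both day 0 libraries.
Nnat, a small membrane proteolipid, and Osbpl5, a sterol-binding protein of the Kcnq1ot1 cluster, were also upregulated. Nnat went from 0.777 and 0.697 CPM to 2.16 and 1.70 CPM (log2 1.37 ± 0.28, FDR = 0.0063), and Osbpl5 from 1.89 and 1.85 CPM to 4.11 and 4.20 CPM (log2 1.13 ± 0.20, FDR = 0.00314). Slc22a18, a transporter of that cluster, fell from 1.00 and 0.848 CPM to 0.242 and 0.106 CPM (log2 -2.42 ± 0.47, FDR = 0.00497), on 16 and 7 counts at day 6, and it was not called without EB day 0 replicate 3. Without that library Sgce, Nnat and Osbpl5 also lost their calls. Cd81, Mest, Zrsr1, Rtl1 and Mcts2 passed the FDR with falls smaller than 2-fold, between -0.85 and -0.68 on the log2 scale. Slc38a4, low in the knockdown libraries, was at 159 and 193 CPM on day 0 and at 146 and 198 CPM on day 6 (log2 -0.06 ± 0.16, FDR = 0.775). Of the exonic bases of Mest 23.0% overlap Copg2, and Mcts2, Nap1l5, Nnat, Zrsr1 and Tssc4 lie inside H13, Herc3, Blcap, Commd1 and Trpm5, so these counts are less certain.

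**Figure D4:**
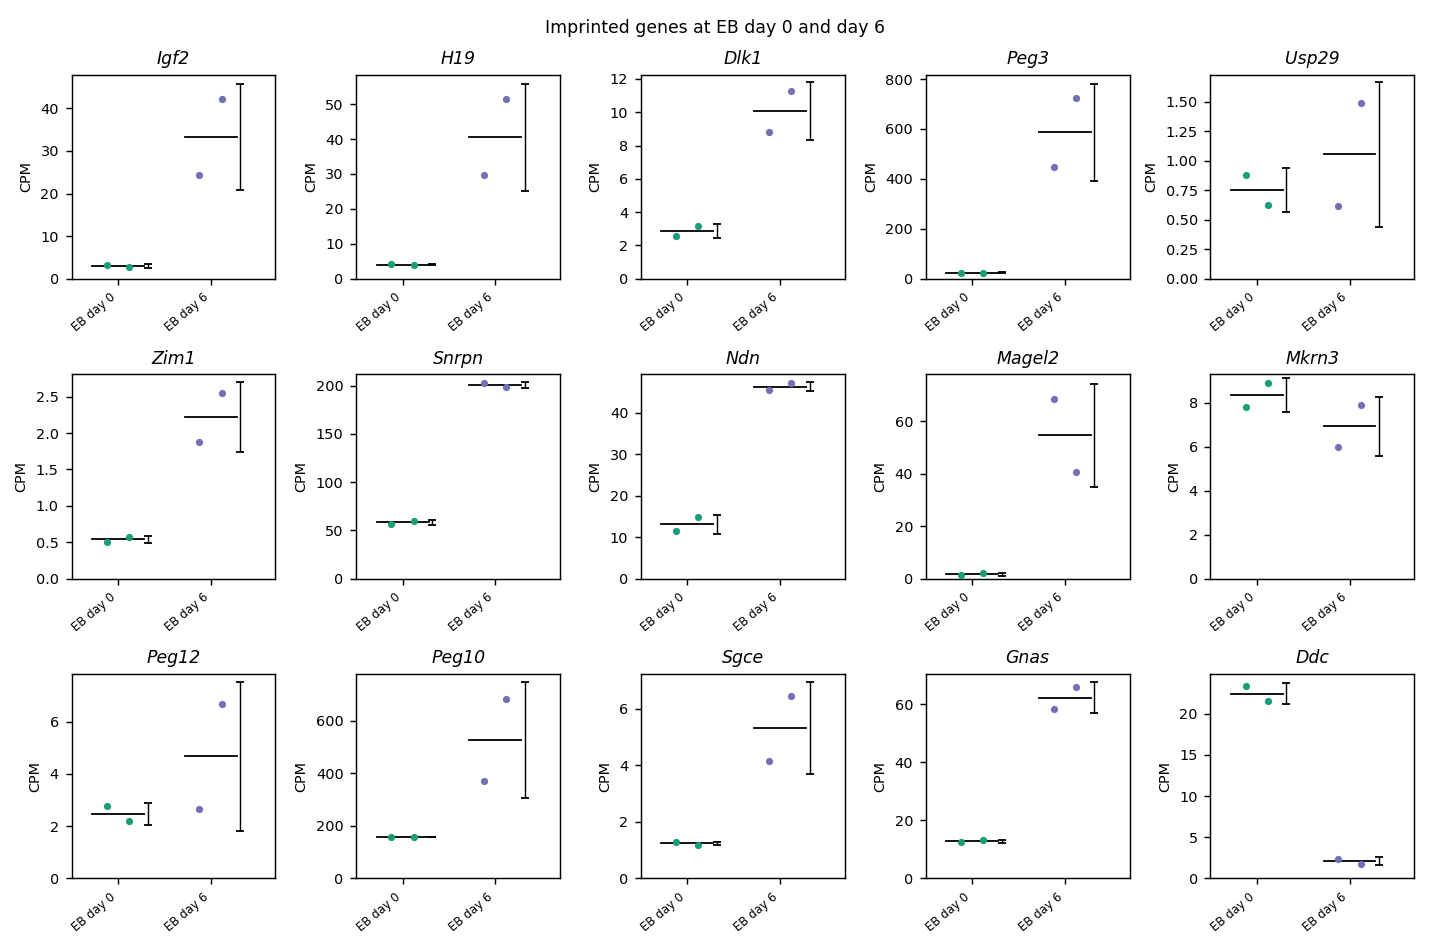
CPM of 15 imprinted genes in EB day 0 (n = 2) and EB day 6 (n = 2) libraries, on linear axes that start at 0. Points are libraries, lines are means and bars are ± SD; Peg3, Magel2, Igf2 and H19 rise steeply, Usp29, Mkrn3 and Peg12 overlap between the days, and Ddc falls.

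Members were split by the allele class assigned to them. With shGas41-1, 4 of 22 paternally and 1 of 13 maternally expressed members tested were upregulated, beside 7.9% of all genes. The maternally expressed one was Kcnq1, which passed the count filter only through the shGas41-1 libraries. There was 1 downregulated member of each kind, beside 2.4% of all genes. With shGas41-2, 3 of 22 paternally and 0 of 12 maternally expressed members were upregulated, beside 3.96% of all genes. At EB day 6, 11 of 22 paternally and 3 of 12 maternally expressed members were upregulated, beside 16.6% of all genes. The median log2 fold changes of paternally and maternally expressed members were 0.11 and -0.09 with shGas41-1, 0.10 and -0.09 with shGas41-2, and 1.13 and 0.33 at EB day 6. These counts and medians are descriptions, and the difference between the classes was not tested.

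The undifferentiated control cells of the EB series were set against the shNT libraries as a check of how far imprinted genes differ between control cultures. None of 35 members was called, beside 0.458% of 18134 genes upregulated and 0.121% downregulated, while 11 members and 4429 genes had an unadjusted p under 0.05 and DESeq2 called 0 members. Meg3, Peg10 and Mest were higher at EB day 0 at an FDR of 0.05 or less, with log2 differences of 0.88, 0.73 and 0.48. H19 and Phlda2 were lower, by log2 differences of -0.88 and -0.77. Igf2, Dio3 and Slc38a4 differed by -0.10 ± 0.22, -0.35 ± 0.30 and 0.07 ± 0.12 on the log2 scale, with FDRs of 0.808, 0.501 and 0.77. Grb10 was higher in both EB day 0 libraries than in every shNT library, at a log2 difference of 0.53 ± 0.12 (FDR = 0.0559), the direction opposite to that with the shRNAs. Magel2 also lay above every shNT library at EB day 0, at a log2 difference of 0.49 ± 0.25 (FDR = 0.27), the same direction as with the shRNAs. Dlk1 overlapped between these groups, at 0.17 ± 0.32 (FDR = 0.787).

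A list of 41 further imprinted genes was counted in the same fits. With shGas41-1, 5 of 31 tested were upregulated and 1 downregulated, beside 7.9% and 2.4% of all genes. Cdkn1c, a maternally expressed cell cycle inhibitor of the Kcnq1ot1 region, was at 10.4 to 15.7 CPM in shNT libraries, at 71.5 to 98.4 CPM with shGas41-1 (log2 2.61 ± 0.21, FDR = 0.00147) and at 53.0 and 76.4 CPM with shGas41-2 (log2 2.23 ± 0.21, FDR = 0.00149). The level of Cdkn1c was thus well above control in every knockdown library.
Tfpi2, a protease inhibitor gene, had 0 counts in each shNT library and 14, 13 and 13 counts with shGas41-1. Th, tyrosine hydroxylase, rose on counts of 4 to 6 in shNT and 12 to 26 with shGas41-1. Both genes passed the count filter only through the shGas41-1 libraries. Gab1, an adaptor of receptor signalling, fell from 450 to 478 CPM in shNT libraries to between 84.6 and 207 CPM with shGas41-1 (log2 -1.67 ± 0.28, FDR = 0.00573). With shGas41-2 Gab1 was at 304 and 332 CPM and was not called. With shGas41-2, 2 of 31 were upregulated (beside 3.96% of all genes), Cdkn1c and the glutaminyl cyclase Qpct (log2 1.21 ± 0.21, FDR = 0.0138), and none was downregulated. At EB day 6, 8 of 30 were upregulated, led by Asb4, Calcr and Atp10a (log2 5.43, 5.07 and 3.61), and 4 were downregulated, led by Tspan32, Gab1 and Qpct (log2 -5.18, -2.56 and -2.52), beside 16.6% and 14.7% of all genes.

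Of 19 genes that establish, protect or erase methylation imprints, all were tested. Dppa3, which shields maternal methylation in the zygote, was at 0.253 to 0.442 CPM in shNT libraries. It was upregulated with shGas41-1, to between 1.49 and 3.22 CPM (log2 2.90 ± 0.37, FDR = 0.00295). With shGas41-2 it was at 0.622 and 0.892 CPM and was not called. Dnmt3l, the cofactor of germline de novo methylation, rose from 34.7 to 45.7 CPM in shNT to between 135 and 221 CPM with shGas41-1 (log2 2.17 ± 0.20, FDR = 0.00187) and to 120 and 166 CPM with shGas41-2 (log2 1.85 ± 0.16, FDR = 0.00145). No other gene of this list was called with either shRNA. Zfp57, which binds methylated imprint control regions, was at 330 to 405 CPM in shNT libraries and 348 to 435 CPM in knockdown libraries, and fell at EB day 6 to 32.7 and 42.7 CPM from 434 and 395 CPM (log2 -3.48 ± 0.15, FDR = 1.21e-05). Also at EB day 6, Tet2, Tet1 and Dnmt3l were downregulated and Dnmt3b and Smchd1 upregulated.

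Some markers of pluripotency and of other cell types were called with the shRNAs, from lists written with earlier results of these data known. With shGas41-1, Klf4 and Esrrb were downregulated among the 8 pluripotency markers, with changes of -1.13 and -1.04 on the log2 scale, and with shGas41-2 none was. Of 8 early lineage markers, Pax6 (log2 2.43, FDR = 0.00451) and Fgf5 (log2 2.08, FDR = 0.0388) were upregulated and Eomes (FDR = 0.0343, just past 2-fold) downregulated with shGas41-1, and 0 were called with shGas41-2. Pax6 was at 1.23 to 3.61 CPM in shNT libraries, at 9.99 to 13.3 CPM with shGas41-1 and at 4.62 and 4.99 CPM with shGas41-2. The summed level of this list was 30.6 to 41.2 CPM in shNT libraries, 34.9 to 37.0 CPM with shGas41-1 and 29.0 CPM in both shGas41-2 libraries, with no marker at 0. Of the fibroblast markers, Thy1 was downregulated with shGas41-1 (log2 -1.10, FDR = 0.0109). Of trophoblast, a lineage in which many imprinted genes are active, 8 markers were counted. With shGas41-1, its markers Gata3, Gcm1 and Cdx2 were upregulated out of 4 markers tested of 8, beside 7.9% of all genes. The remaining marker tested passed the FDR with a fall smaller than 2-fold. With shGas41-2, Gata3 and Gcm1 were upregulated out of 5 tested, beside 3.96% of all genes. Gata3 and Gcm1 had 6 to 13 counts in shNT libraries and passed the count filter through the knockdown libraries. Elf5 and Plac1, low in both groups, were not tested with shGas41-1, so the share of tested markers was shaped by the filter. The highest levels of Gata3, Gcm1 and Cdx2 in a knockdown library were 3.20, 1.33 and 1.28 CPM. The summed level of the list, most of it Tfap2c, was 23.7 to 27.4 CPM in knockdown libraries and 29.1 to 42.4 CPM in shNT libraries, and 2 or 3 of the 8 markers were at 0 or not listed. Extraembryonic endoderm markers summed to 3.03 to 3.59 CPM in shNT libraries and 4.06 to 6.96 CPM in knockdown libraries, with Gata6 upregulated with shGas41-1 (log2 1.76, FDR = 0.0188) and Sox7 with shGas41-2 (log2 1.23, FDR = 0.0292). The part of these markers' cell types in the levels of Igf2, Dlk1, Dio3, Magel2, Grb10 and Slc38a4 was not tested.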

How the data were processed

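RNA-seq of 12 libraries was analysed; 15 ChIP-seq samples were not analysed here. Per the labels and methods, the authors mapped reads to mm9 with TopHat2 2.0.10 and assigned them to genes with HTSeq. The deposited tables hold these raw counts. No strand setting was given, so antisense and overlapping genes share reads, and alleles were not separated. The deposited log2 fold changes, p-values and FDRs are the authors' own comparisons and were not used. Low genes were removed with filterByExpr (count 10, total 15), libraries were TMM-scaled, and groups were compared with the quasi-likelihood test of edgeR 4.0.16 in R 4.3.3, with Benjamini-Hochberg adjustment over all genes tested in each of 5 comparisons. A gene was called at an FDR no higher than 0.05 when its log2 fold change also reached 1 or -1, limits the authors used too. The columns named ESC in the EB table were taken as EB day 0. Intervals of the shRNA difference used 3 residual degrees of freedom. The test was tried on simulated counts. Members were given by name, and the gene lists were written with earlier results of these data known. A member was given library by library if called with a shRNA, or if called at EB day 6 with a group mean of at least 10 CPM; cluster partners were added, and up to 3 called genes per direction were named from the other lists. H19 in the knockdown and members that passed the FDR alone were named after their values were seen. Positions come from the GENCODE annotation of mm9, which matched 26910 of 27080 gene IDs, and promoters from RefSeq. Alternatives were library size scaling, DESeq2 1.42.0, no filter, blocking on replicate number, leaving out each library, all 12 libraries in 1 fit, FDR alone, glmTreat and halved counts.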

Additional observations from a re-analysis of the deposited data

How the results depend on the processing

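With 2 or 3 libraries a group, calls near the thresholds moved. With shGas41-1 the 5 upregulated members became 3 with the replicate number as a block and 1 (Igf2) under glmTreat, and ranged from 3 to 6 with each library left out, with 3 without shNT replicate 3 or shGas41-1 replicate 1 (Dlk1 and Kcnq1 lost). The 2 downregulated became 0 under glmTreat and 1 with halved counts, and ranged from 1 to 2 (Slc38a4 lost). With shGas41-2 the 3 upregulated became 0 under glmTreat and ranged from 1 to 3 (Igf2 and Magel2 lost without shGas41-2 replicate 2), and the 0 downregulated became 4 at FDR alone. At EB day 6 the 15 upregulated ranged from 11 to 16 (11 without EB day 0 replicate 3, where Nnat, Osbpl5, Peg10 and Sgce lost their call), and the 2 downregulated became 7 at FDR alone and ranged from 1 to 3 (Slc22a18 lost without EB day 0 replicate 3). Between the shRNAs, 1 member, H19, was called with the block. Between EB day 0 and shNT, 3 were higher and 2 lower at FDR alone, and 0 to 1 were higher with a library left out (Meg3, without EB day 0 replicate 3). A lone library was assumed to vary like the others. The share of all genes that pass FDR alone was not counted, so the member counts at FDR alone have no background beside them.

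The median log2 fold change of the members with shGas41-1 was -0.0573 with library size scaling, 0.0865 without the filter and 0.00624 over all 12 libraries, and -0.0375 to 0.0868 with each library left out. With shGas41-2 it was -0.0818 with library size scaling, 0.0753 with the block and -0.0519 to 0.0782 with each library left out. For EB day 0 against shNT it was -0.0153 to 0.20, and for EB day 6 0.38 to 0.72, with each library left out. Single-gene values were kept only for members given library by library whose FDR in that comparison was 0.05 or less in the main fit. Apart from FDR alone and glmTreat, which were run only for the counts above, the alternatives gave 290 such values. Of these, 273 kept their direction and side of the threshold, 17 lost the call and none reversed. Gains of a call were largely left out by this choice. H19 with shGas41-1, left out at FDR = 0.064, was called with DESeq2, without the filter, over all 12 libraries and without shGas41-1 replicate 3, and not in the other alternatives. Kcnq1 was not tested with halved counts. Replicate numbers were not treated as pairs: same-numbered libraries of shGas41-1 and shNT deviated from their groups with correlations of 0.01, 0.14 and -0.39, of shGas41-2 and shNT with 0.34 and 0.24, of the EB groups with 0.05, of EB day 0 and shNT with -0.03 and 0.04, and of the shRNAs, where the block gave the H19 call (log2 1.11), with 0.17 and 0.30. With the block, Kcnq1 and Dio3 lost their call with shGas41-1 (FDR = 0.0702 and 0.0507) and no other named call was lost.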
